A study of Mus musculus with 16 samples.

Results

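The muscle acetylcholine receptor is encoded by 5 subunit genes, Chrna1, Chrnb1, Chrnd, Chrne and Chrng, and all 5 were on the array, with 8 of the 12422 probe sets that are not controls. The members were chosen as every probe set whose single gene symbol in the platform's annotation is one of these genes. RNA of sorted mouse thymic cells had been hybridised to 16 Affymetrix arrays in 8 groups of 2 samples. Medullary thymic epithelial cells (mTEC) came as a CD80hi and a CD80lo fraction, sorted by high or low surface CD80, from wild-type mice and from mice labelled as AIRE knockout. The other groups, all wild type, were mTEC not split by CD80 (unfractionated mTEC), epithelial cells of the cortex (cTEC), and dendritic cells and macrophages of the thymus. The labels give no age, strain, sex or knockout allele, and do not say whether the samples of a group came from separate mice, so that p-values measure the spread between these samples, which may be technical.

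In muscle the receptor is a ring of subunits that opens a cation channel when acetylcholine binds. A pair of alpha subunits (Chrna1) carries most of the binding sites and much of the surface that autoantibodies recognise in myasthenia gravis, and the beta (Chrnb1) and delta (Chrnd) subunits complete the ring. The last position is held by the gamma subunit (Chrng) in fetal and denervated muscle and by the epsilon subunit (Chrne) in innervated adult muscle. In the thymus, mTEC transcribe many genes of other tissues, in part through Aire, and thereby present such proteins to developing T cells. Rare muscle-like (myoid) cells of the medulla can also carry the receptor.

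The upstream sequence is shown for Chrna1 and Chrnb1, the subunits that passed the test in more than 1 comparison of these cells. Each window runs from 250 bases before to 50 bases after the start of the gene, 5′ to 3′ (RefSeq, GRCm38.p6), and capitals mark CANNTG, the E-box to which the muscle regulators of the MyoD family bind. The window of Chrna1 is chr2:73580289-73580588 and that of Chrnb1 chr11:69795888-69796187, both on the minus strand.
Chrna1: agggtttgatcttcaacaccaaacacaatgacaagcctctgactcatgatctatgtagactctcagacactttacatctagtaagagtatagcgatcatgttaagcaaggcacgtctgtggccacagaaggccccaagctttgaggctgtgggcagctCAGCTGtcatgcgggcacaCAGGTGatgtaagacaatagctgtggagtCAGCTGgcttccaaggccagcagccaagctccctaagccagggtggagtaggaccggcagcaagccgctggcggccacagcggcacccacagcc
Chrnb1: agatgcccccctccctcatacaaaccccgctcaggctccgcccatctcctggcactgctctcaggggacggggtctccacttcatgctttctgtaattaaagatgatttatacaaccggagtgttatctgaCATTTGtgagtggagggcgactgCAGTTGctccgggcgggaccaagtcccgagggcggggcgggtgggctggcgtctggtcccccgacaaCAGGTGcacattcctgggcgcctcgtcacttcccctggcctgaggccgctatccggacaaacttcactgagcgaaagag

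The Chrna1 window held 3 matches to CANNTG, beginning 92, 73 and 44 bases before the start, and 2 of them read CAGCTG. The Chrnb1 window also held 3, with no CAGCTG. Of the other subunits, Chrng had 3 matches, 2 of them CAGCTG, and Chrne had 1, which was CAGCTG. Chrnd was not searched, as no window for it was used here. Among 32851 promoter windows of this length, 17.6% held 3 or more CANNTG matches and 1.90% held 2 or more CAGCTG matches. CANNTG and CAGCTG read the same on both strands, and every CAGCTG is also a CANNTG. Chrnd and Chrng are neighbours, with 5741 bases between them on chromosome 1. Chrna1 lies on chromosome 2, and Chrnb1 and Chrne lie on chromosome 11.

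Most subunit signals lay near the lower end of each array. Signals are the deposited linear intensities, in arbitrary units, and a probe set was tested if it exceeded 17.3 (the 40th percentile of all values) on at least 2 arrays. This left 9319 probe sets and 7 of the 8 subunit probe sets, and 1 of the 3 Chrne probe sets did not pass. Chrna1 exceeded that level on 6 of 16 arrays and Chrnd on 3. Chrna1 never rose above the 46.9th percentile of its array. Chrnb1 exceeded the level on 14 arrays. A fold change below is a difference of log2(signal + 4.8), and ± gives its standard error in the fit. They understate changes of genes this dim. Tests were 2-sided limma contrasts in 1 fit over all arrays (2 arrays per group), adjusted by Benjamini-Hochberg over the 9319 probe sets, with a threshold of 0.05. The plot of the 8 probe sets by group shows every signal.

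**Figure D1:**
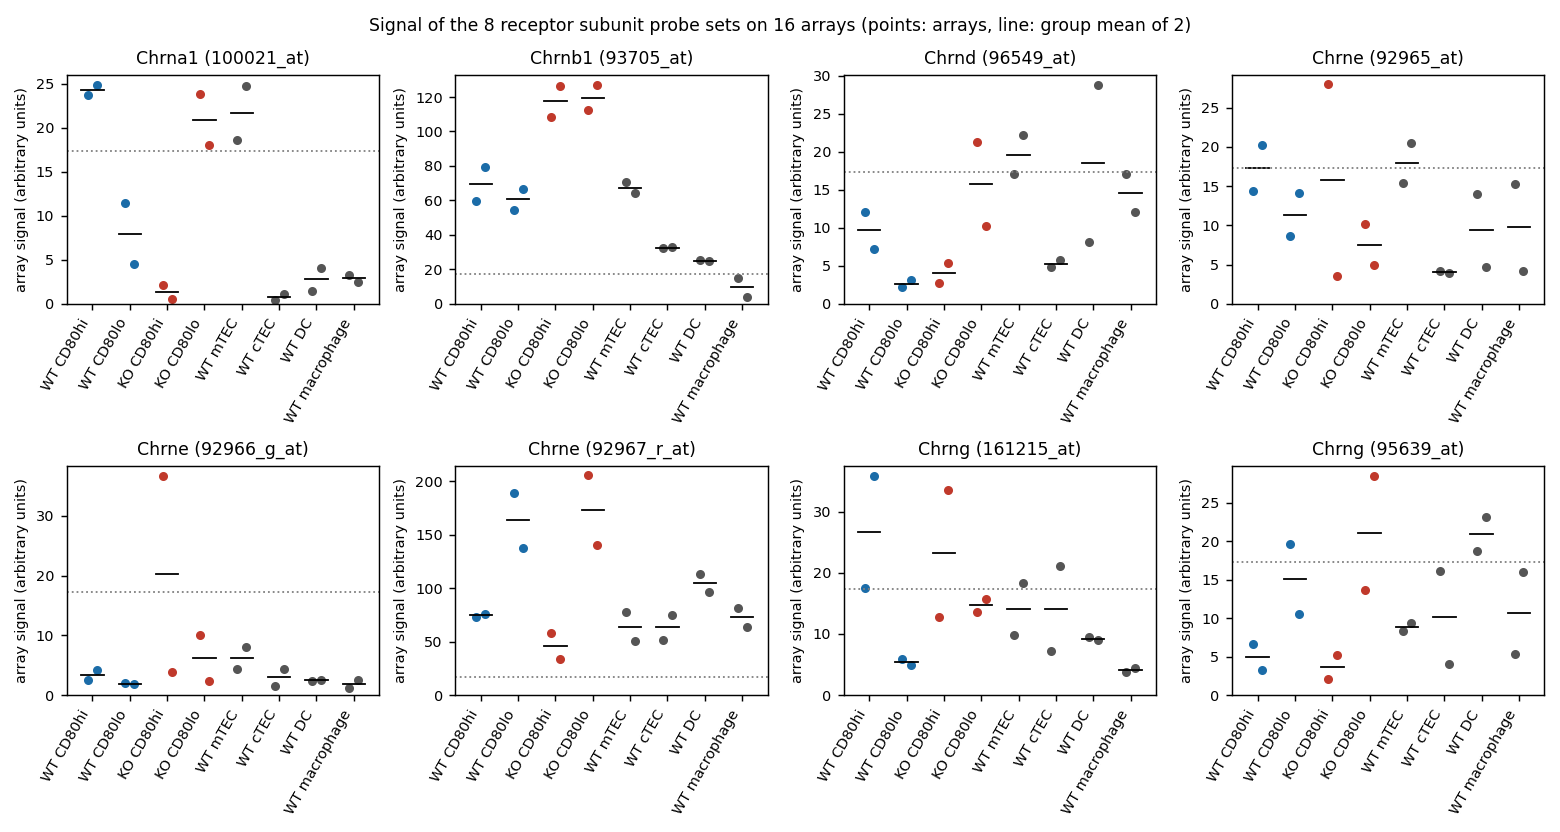
Signal (arbitrary units, linear axes from 0) of each subunit probe set on the 16 arrays, with points for arrays, a line for the mean of each group of 2 and a dotted line at 17.3. Chrna1 lies above 17 on the arrays of wild-type CD80hi, knockout CD80lo and unfractionated mTEC and below 12 on all others, and Chrnb1 is highest on the 4 knockout arrays.

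Chrna1, the alpha subunit, had signals of 23.7 and 24.8 in wild-type CD80hi mTEC and 11.4 and 4.5 in wild-type CD80lo mTEC. In knockout CD80hi mTEC it gave 2.1 and 0.5, and in knockout CD80lo mTEC 23.8 and 18.0. Unfractionated mTEC gave 18.6 and 24.7. The remaining groups were all low, with 0.4 and 1.1 in cTEC, 1.5 and 4.1 in dendritic cells and 3.3 and 2.5 in macrophages. By group mean, wild-type CD80hi, unfractionated and knockout CD80lo mTEC came first and overlapped each neighbour in this order. Wild-type CD80lo mTEC followed, apart from its neighbours on both sides. Macrophages, dendritic cells, knockout CD80hi mTEC and cTEC came last, and each overlapped the next. Knockout CD80hi mTEC thus lay among the cell types with the lowest signals.

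Between unfractionated mTEC and the other wild-type cells, Chrna1 was higher in mTEC in all 3 comparisons. The log2 fold change was 2.25 ± 0.39 against cTEC (limma adjusted p = 0.00102), 1.81 ± 0.39 against dendritic cells (adjusted p = 0.00302) and 1.77 ± 0.39 against macrophages (adjusted p = 0.00383). The 3 comparisons share the mTEC arrays. All 3 calls held without any 1 of the arrays compared, with adjusted p up to 0.0404. Of the 5 subunit genes, 1 was called against cTEC and 2 each against dendritic cells and macrophages, all higher in mTEC. Of all tested probe sets, 15.4% were called against cTEC (11.1% higher, 4.25% lower), 24.3% against dendritic cells (16.8% higher, 7.58% lower) and 22% against macrophages (14.6% higher, 7.37% lower).

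Within mTEC, Chrna1 was 1.24 ± 0.39 higher in CD80hi than in CD80lo cells of wild-type mice (log2 fold change, limma adjusted p = 0.0496). The groups did not overlap, as for 30.4% of all probe sets in this direction, and the p lay at the threshold. The call was lost with quantile normalisation (adjusted p = 0.102), with a constant of 1 in place of 4.8 (adjusted p = 0.138) and in 3 of 4 fits without 1 array, namely CD80hi array 1 (adjusted p = 0.184), CD80hi array 2 (0.205) and CD80lo array 2 (0.403). In this comparison 2 of the 5 subunit genes were called, both higher, beside 12.7% of all probe sets (7.98% higher, 4.74% lower). Macrophage markers (10 of 10 on the array) summed to 1125 and 975 in these CD80hi cells and 171 and 179 in the CD80lo cells, with 3 called higher. Fibroblast markers (8 of 8) ran the other way, with 2 called lower. Their part in the Chrna1 difference was not tested. In knockout mTEC the order of the fractions for Chrna1 was the opposite. Chrna1 was lower in CD80hi than in CD80lo cells by a log2 fold change of -2.08 ± 0.39 (limma adjusted p = 0.00243), a call that held without any 1 of the 4 arrays. Here 2 of the 5 genes were called, both lower, beside 12.8% of all probe sets (5.93% higher, 6.87% lower).

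Knockout CD80hi cells had less Chrna1 than wild-type CD80hi cells, with a log2 fold change of -2.26 ± 0.39 (limma adjusted p = 0.00455). It was the only 1 of the 5 subunit genes called there, beside 3.05% of all probe sets (0.172% higher, 2.88% lower). The call was lost without either wild-type array, at adjusted p of 0.0518 and 0.0552. Markers of other cells also differed in summed signal between these groups. B-cell markers (5 of 6 on the array) summed to 875 and 694 in the knockout against 406 and 343 in the wild type, mostly through Blk, and dendritic cell markers (7 of 8) to 1815 and 1443 against 932 and 1101. None of these 12 genes was called between the groups, and their part in the Chrna1 difference was not tested. In CD80lo cells the knockout had a fold change of 1.06 ± 0.39 (adjusted p = 0.614), which did not pass. The arrays did not overlap, as for 15.5% of all probe sets in this direction. There 0 of the 5 genes passed in limma, beside 0.322% of all probe sets (0.279% higher, 0.0429% lower), while Chrna1, Chrnb1 and Chrnd had unadjusted p of 0.0163, 0.0223 and 0.00873. An unadjusted p under 0.05 was found for 5.55% of all probe sets there. The genotype effect on Chrna1 differed between the fractions by -3.32 ± 0.55 on the log2 scale (interaction, limma adjusted p = 0.00766). This was the only subunit called, beside 1.30% of all probe sets, every 1 of which was lower. The interaction kept its call in 7 of the 8 fits without 1 array, and lost it without wild-type CD80lo array 2 (adjusted p = 0.0577) or without array 1 of both knockout groups (adjusted p = 0.0540). Averaged over both fractions, a contrast chosen after the signals were seen, the knockout effect on Chrna1 was -0.60 ± 0.27 (adjusted p = 0.448). These comparisons share arrays with each other, so they are not separate evidence. The plot of Chrna1 contrasts gives all of them.

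**Figure D2:**
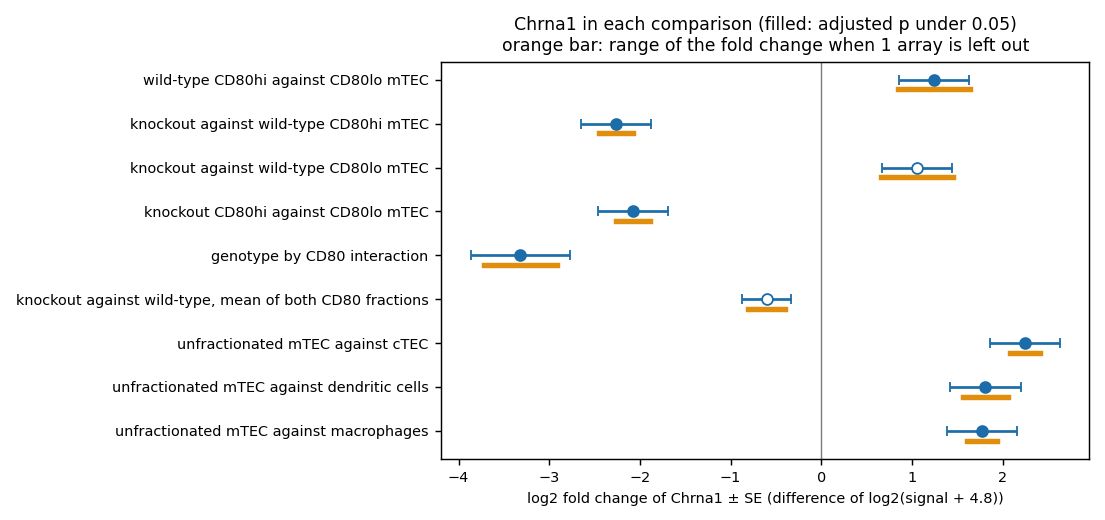
Log2 fold change of Chrna1 (x axis, difference of log2(signal + 4.8)) in each comparison (y axis), with the standard error of the fit as blue bars, filled points where the adjusted p was under 0.05, and an orange bar for the range when 1 array was left out. The interaction lies farthest from 0 at -3.32, and only the knockout effect in CD80lo cells and the effect averaged over both fractions have open points.

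Knockout CD80lo mTEC, whose Chrna1 signals of 23.8 and 18.0 were not tested against those of wild-type CD80hi cells, also had high signals of some other muscle genes. The muscle fibre marker list, fixed for cells that a sort could carry along, had 11 of 12 genes on the array. Its summed signal was 1091 and 1001 on the knockout CD80lo arrays. On the wild-type CD80-sorted arrays it ranged from 318 to 376, and on the knockout CD80hi arrays it was 223 and 168. Skeletal actin, Acta1, made up most of this, with 636 and 508 in knockout CD80lo cells. It read 52.4 and 37.3 in wild-type CD80lo, 21.9 and 22.2 in wild-type CD80hi and 2.0 and 3.9 in knockout CD80hi cells. Acta1 was 3.55 higher in knockout than wild-type CD80lo cells on the log2 scale (limma adjusted p = 0.000233). Ckm, Myh3, Myh8 and Tnni2 of the same list were at or below 17.3 on both knockout CD80lo arrays. The part of muscle fibre or myoid cells, or their RNA, in the Chrna1 signal of that group was not tested. Fewer cells of a type and less RNA per cell cannot be told apart in such bulk samples.

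Myog, the MyoD-family factor myogenin, which binds E-boxes of receptor genes in muscle, gave 172 and 179 in knockout CD80lo and 45.2 and 23.9 in knockout CD80hi mTEC. Wild-type CD80hi cells gave 93.3 and 80.7 and wild-type CD80lo cells 103 and 91.9. The knockout CD80hi arrays were thus the lowest of the 8 and the knockout CD80lo arrays the highest. Myog was lower in knockout CD80hi than CD80lo cells by a log2 fold change of -2.25 (limma adjusted p = 0.000663). The excitation genes of muscle did not share 1 direction. Of 9 listed 6 were tested. Between knockout CD80hi and CD80lo mTEC 1 was higher (Cacna1s) and 1 lower (Ryr1), beside 5.93% and 6.87% of all probe sets. The summed signal of the 6 genes was 395 and 327 in knockout CD80hi and 258 and 206 in knockout CD80lo mTEC, the opposite order to the fibre markers. Cacna1s made up most of the knockout CD80hi sum. In the wild type the sum was 272 and 254 in CD80hi and 125 and 104 in CD80lo mTEC, the same order as in the knockout. The median log2 fold change of the 6 genes, CD80hi against CD80lo, was -0.68 in the knockout and 0.44 in the wild type. Cacna1s, the voltage sensor of muscle calcium release, gave 301.8 and 229.1 in knockout CD80hi and 35.6 and 9.7 in knockout CD80lo mTEC. Ryr1, the calcium release channel of the sarcoplasmic reticulum, gave 68.8 and 34.5 in knockout CD80lo and 0.8 and 11.1 in knockout CD80hi mTEC. Its interaction of genotype and fraction was -3.36 (adjusted p = 0.0446). Erbb3, a neuregulin receptor that raises receptor transcription at the synapse, read 361 and 220 in knockout CD80lo, 162 and 162 in knockout CD80hi, 265 and 293 in wild-type CD80hi and 106 and 110 in wild-type CD80lo mTEC. Its interaction was -2.11 (adjusted p = 0.0285).

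**Figure D3:**
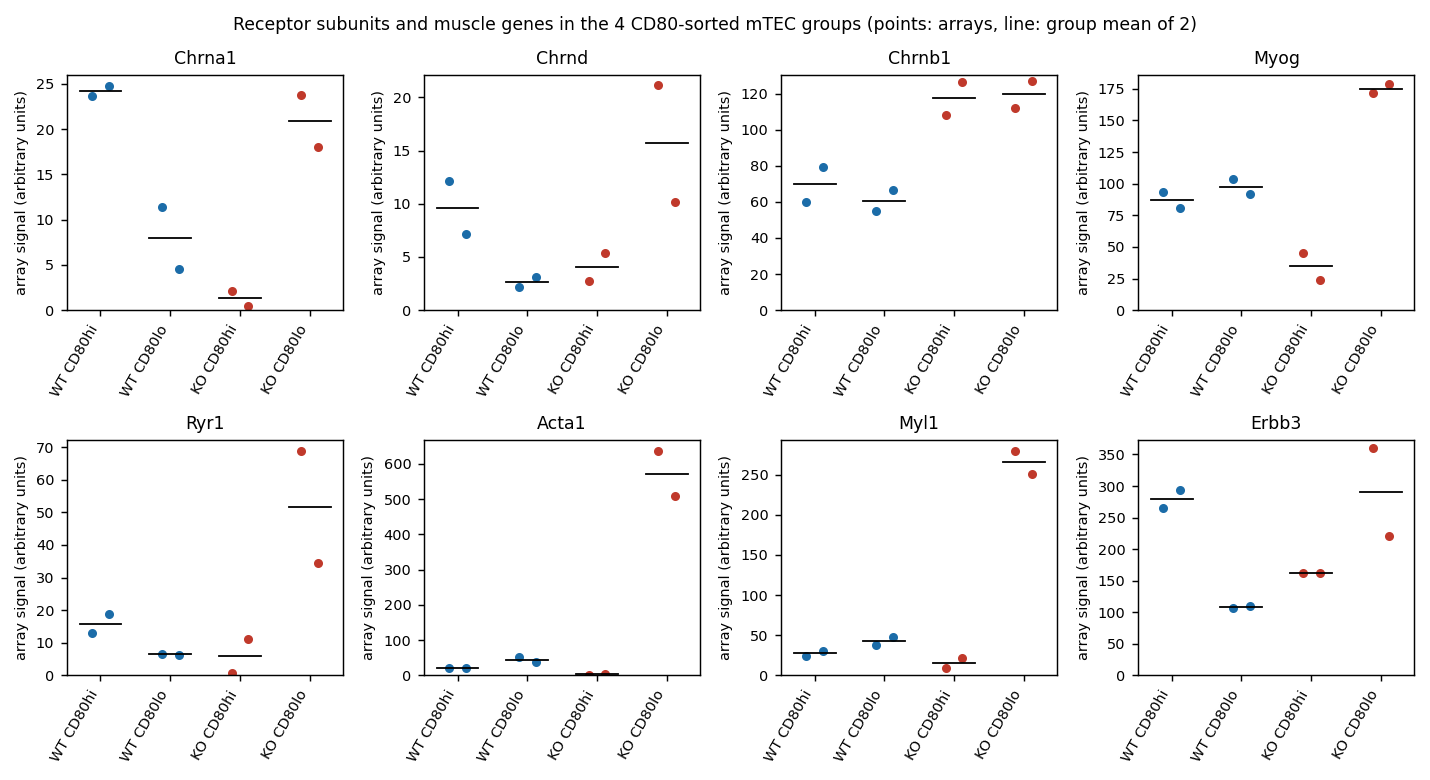
Signal (arbitrary units, linear axes from 0) on the 8 arrays of CD80-sorted mTEC, with points for arrays and a line for each group mean. Plotted are 3 receptor subunits, Acta1, Myl1, Myog and Ryr1 picked from the muscle lists, and Erbb3 of the synapse assembly list. Acta1, Myl1, Myog and Ryr1 are highest on both knockout CD80lo arrays, and Chrna1 reads 23.8 and 18.0 there against 23.7 and 24.8 on the wild-type CD80hi arrays. Not plotted are Cacna1s, which was higher in knockout CD80hi than CD80lo mTEC, and Ckm, Myh3, Myh8 and Tnni2. The last were at or below 17.3 on both knockout CD80lo arrays.

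Chrnb1, the beta subunit, had its highest signals in both knockout groups. It gave 108 and 126 in knockout CD80hi and 112 and 127 in knockout CD80lo mTEC. Wild-type CD80hi cells gave 59.8 and 79.5, wild-type CD80lo cells 54.7 and 66.4 and unfractionated mTEC 70.4 and 64.2. Each of the 4 knockout arrays lay above every wild-type array, of any cell type. The signal was 32.5 and 32.8 in cTEC, 25.2 and 24.9 in dendritic cells and 15.2 and 4.0 in macrophages. The 3 wild-type mTEC groups overlapped each other, as did the knockout groups, and each further step down the order was apart.

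Chrnb1 was higher in unfractionated mTEC than in macrophages by a log2 fold change of 2.44 ± 0.36 (limma adjusted p = 0.0002), and this call held without any 1 of the arrays. Against dendritic cells it was higher by 1.27 ± 0.36 (adjusted p = 0.0186). That call was lost without any 1 of the 4 arrays (adjusted p from 0.0682 to 0.0977) and with quantile normalisation (adjusted p = 0.0908). The latter moved the median fold change of all probe sets from 0.10 to -0.16 in this comparison, and the share of calls higher in mTEC from 68.9% to 57.6%. Against cTEC the fold change was 0.94 ± 0.36 (adjusted p = 0.105). The knockout effect in CD80lo cells was 0.93 ± 0.36 (adjusted p = 0.690). Averaged over both fractions, a contrast chosen after these signals were seen, it was 0.83 ± 0.26 (unadjusted p = 0.00610, adjusted p = 0.176). Thus no genotype effect on Chrnb1 passed the test. All 4 knockout arrays lay above all 4 wild-type CD80-sorted arrays for 1.06% of all probe sets, and Chrnb1 was singled out after its signals were seen. In that averaged contrast limma called 0 of the 5 subunits, and 1.34% of all probe sets (0.172% higher, 1.17% lower). Chrna1 and Chrnb1 had an unadjusted p under 0.05, as did 10.7% of all probe sets. Fgf11, a fibroblast growth factor homologue whose gene lies 102 bases from Chrnb1, gave 91.3 and 65.8 in knockout CD80lo and 38.0 and 38.4 in knockout CD80hi cells. Neither gene was called between the knockout fractions. The CD80hi against CD80lo fold change was -0.94 for Fgf11 (limma adjusted p = 0.165) and -0.03 for Chrnb1 (adjusted p = 0.979).

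Chrnd, the delta subunit, was dim throughout, with no comparison past the threshold. It gave 12.1 and 7.2 in wild-type CD80hi, 2.2 and 3.1 in wild-type CD80lo, 2.7 and 5.4 in knockout CD80hi and 21.2 and 10.2 in knockout CD80lo mTEC. The 2 groups in which it was higher were thus those in which Chrna1 was high. Its interaction of genotype and fraction was -2.11 ± 0.65 (unadjusted p = 0.00607, limma adjusted p = 0.194), and its knockout effect in CD80lo cells 1.41 ± 0.46 (adjusted p = 0.483). Unfractionated mTEC gave 17.0 and 22.2 and cTEC 4.8 and 5.7, a fold change of 1.27 ± 0.46 (adjusted p = 0.0852). In the myeloid cells it gave 8.1 and 28.8 in dendritic cells and 17.1 and 12.1 in macrophages, which overlap unfractionated mTEC.

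The gamma subunit, Chrng, was read by 2 probe sets that disagreed. With the brighter set, wild-type CD80hi mTEC gave 17.6 and 35.9 and wild-type CD80lo mTEC 5.9 and 5.0, a fold change of 1.56 ± 0.48 (limma adjusted p = 0.0449). With the dimmer set the same arrays gave 6.6 and 3.2, and 19.6 and 10.6, so that the CD80lo arrays were the higher ones (adjusted p = 0.243). Over the 16 arrays the log2 signals of the probe sets had a Pearson r of -0.45, as a description. The call of the brighter set was lost without any 1 of the 4 arrays (adjusted p up to 0.336), without the filter (adjusted p = 0.0554) and with the mean of both probe sets (fold change 0.27, adjusted p = 0.746). In knockout mTEC the dimmer set gave 2.1 and 5.2 in CD80hi and 13.7 and 28.5 in CD80lo cells, a fold change of -1.58 ± 0.50 (adjusted p = 0.0551). With the brighter set those arrays gave 12.8 and 33.6, and 13.6 and 15.8, and overlapped. In the other groups the brighter set ranged from 3.7 in macrophages to 21.1 in cTEC, and the dimmer from 4.0 in cTEC to 23.2 in dendritic cells.

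The epsilon subunit, Chrne, had 3 probe sets, and 1 of them exceeded 17.3 on all 16 arrays. Its ID carries the suffix r, which marks relaxed probe selection rules of the maker. This r set gave 206 and 140 in knockout CD80lo and 189 and 138 in wild-type CD80lo mTEC. The CD80hi signals were 73.5 and 76.2 for wild type and 58.3 and 34.2 for the knockout. The CD80lo arrays were thus above the CD80hi arrays in both genotypes. The fold change of CD80hi against CD80lo was -1.82 ± 0.36 in knockout cells (limma adjusted p = 0.00351) and -1.06 ± 0.36 in wild-type cells (adjusted p = 0.0704). The knockout call was lost when only these groups were fitted (adjusted p = 0.0524), and the wild-type value passed in such a fit (adjusted p = 0.0104). The remaining groups gave 50.6 to 113, with dendritic cells highest.

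The other Chrne probe sets did not show this. The set without a suffix gave 8.6 and 14.1 for wild-type CD80lo and 10.2 and 4.9 for knockout CD80lo mTEC. For CD80hi mTEC it gave 14.4 and 20.2 with the wild type and 28.0 and 3.5 with the knockout, and it was called in no comparison. The untested set, with the suffix g, read 36.6 on knockout CD80hi array 1, 3.9 on array 2 and at most 10.1 on any other array. Both sets were thus highest on the same array. The Pearson r of log2 signals between the r set and the set without a suffix was 0.03 over the 16 arrays, as a description. With the mean of the 3 probe sets the knockout difference between fractions was -0.16 (limma adjusted p = 0.879). The plot of paired probe sets shows these disagreements for Chrng and Chrne.

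**Figure D4:**
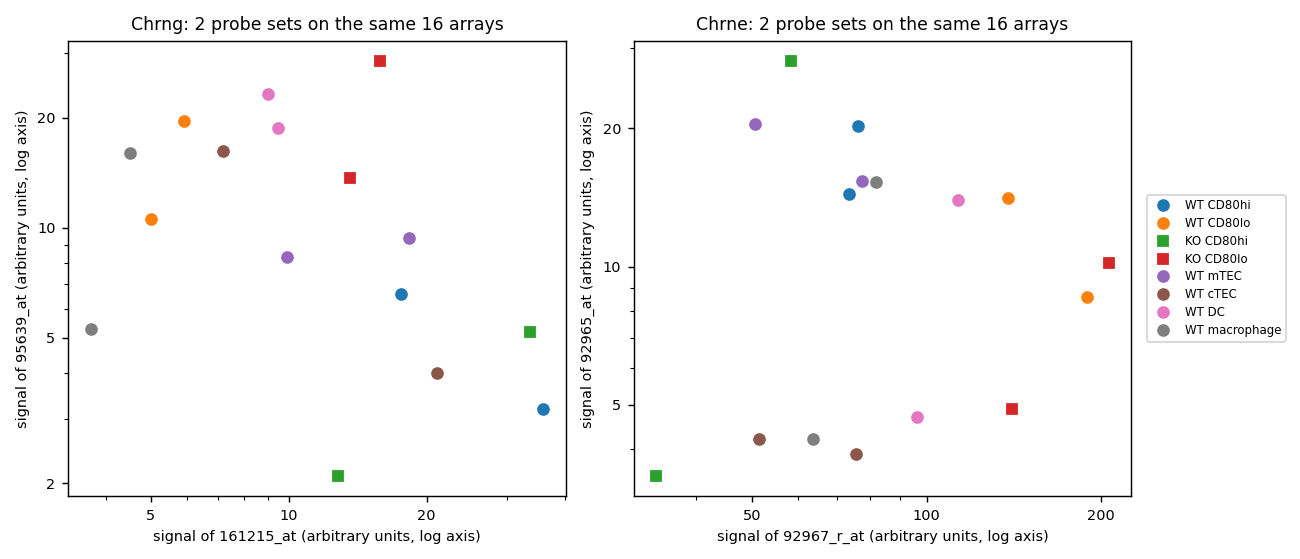
Signals (arbitrary units, log axes) of 2 probe sets of Chrng (left, brighter set on the x axis) and 2 of Chrne (right, r set on the x axis and the set without a suffix on the y axis) on the same 16 arrays, 1 point per array, coloured by group, with squares for knockout samples. The points do not follow a rising line in either plot, and the Pearson r of the log2 signals was -0.45 for Chrng and 0.03 for Chrne.

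Over the 16 arrays, the Pearson r of log2 signals of Chrna1 with the other subunits (brightest probe set each) was 0.45 for Chrnb1, 0.41 for Chrnd, 0.36 for Chrne and 0.29 for Chrng, as descriptions over arrays that fall into 8 groups. With Aire it was 0.49. Of 6826 genes compared, those most like Chrna1 over the arrays were Hp (haptoglobin), Ambp (a liver plasma protein precursor), Eln (elastin), Ereg (epiregulin) and Bex4, with r of 0.93, 0.90, 0.90, 0.90 and 0.88. Hp and Ambp are known as liver genes and Eln as a connective tissue gene. Hp gave 127 and 128 in wild-type CD80hi, 57.3 and 67.6 in wild-type CD80lo, 40.4 and 56.8 in knockout CD80hi and 95.8 and 85.0 in knockout CD80lo mTEC. Those most like Chrnb1 were Il1r1, Plat, Stat3, Casp4 and Icam1, with r of 0.93, 0.92, 0.92, 0.92 and 0.92. For Chrnd they were led by Prtn3 at 0.80, for Chrne by Anxa2 at 0.91 and for Chrng by Orm2 at 0.84, all over 16 arrays.

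Of 20 synapse assembly genes 9 could be tested. In wild-type CD80hi against CD80lo mTEC 1 was higher (Erbb3) and 1 lower (Dag1, dystroglycan), beside 12.7% of all probe sets called, and in knockout against wild-type cells limma called 0 in either fraction (1 in CD80hi and 2 in CD80lo cells at an unadjusted p under 0.05, beside 11.5% and 5.55% of all probe sets). Against cTEC 3 were higher in unfractionated mTEC, namely Erbb3 and the laminin chains Lama5 and Lamb2, and Dag1 was lower, beside 15.4% of all probe sets called. Against dendritic cells 5 were higher (Agrn, Dag1, Erbb3, Lama5 and Lamb2) and against macrophages 4 (the same without Dag1), beside 16.8% and 14.6% of all probe sets called higher. Musk, the kinase that starts receptor clustering, was not tested, with signals from 0.6 to 10.4. Rapsn, the clustering scaffold rapsyn, ranged from 12.6 to 38.8 and was called nowhere. Agrn, the nerve-derived organiser agrin, gave 756 and 648 in unfractionated mTEC, 209 and 150 in dendritic cells and 313 and 186 in macrophages. It was higher in mTEC than in both, by 1.96 and 1.51 on the log2 scale (limma adjusted p = 0.000972 and 0.00649). Of 6 acetylcholine handling genes 2 could be tested, and Ache, the esterase that breaks down acetylcholine, was higher in unfractionated mTEC than in dendritic cells (4.53) and macrophages (2.45). Of 11 neuronal nicotinic subunits 3 were on the array and 2 were tested, Chrna6 and Chrna7, with no limma call in any comparison and at most 1 of them at an unadjusted p under 0.05.

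Of 35 muscle contractile genes 27 were tested. In wild-type CD80hi against CD80lo mTEC 10 were higher and 2 lower (median log2 fold change 0.59, beside -0.04 over all probe sets, of which 7.98% were called higher and 4.74% lower). In knockout against wild-type CD80hi cells 1 was higher and 5 lower (median -0.63, beside -0.05, with 0.172% and 2.88% of all probe sets called), and in CD80lo cells 4 were higher, namely Acta1, Myh1, Myh4 and Myl1 (median 0.45, beside -0.05, with 0.279% of all probe sets called higher). The interaction was lower for 6 (median -1.51, beside 0.01, with 1.3% of all probe sets called lower). The 5 receptor genes, of which 1 was called, had a median of -1.14 there, and of -0.75 with the dimmer Chrng set. Of 11 muscle regulators 6 were tested, and Myog and Six4 were the members with a call. Between the fractions 1 was lower in CD80hi than CD80lo mTEC in each genotype, Six4 in the wild type and Myog in the knockout. Of all probe sets, 4.74% (wild type) and 6.87% (knockout) were called lower. In unfractionated mTEC 1 was higher than in cTEC and 1 than in dendritic cells, beside 11.1% and 16.8% of all probe sets. No other comparison had a call in this list. Of 7 E-proteins and Id inhibitors, which form or block the dimers that bind E-boxes, 3 were lower in CD80hi than CD80lo mTEC of either genotype (Id1, Id3 and Tcf4), beside 4.74% of all probe sets in the wild type and 6.87% in the knockout. Of 4 thymic regulators, Irf8, a factor tied to Chrna1 promoter activity in human studies, gave 1205 and 921 in wild-type CD80hi, 2237 and 1231 in knockout CD80hi and 2157 and 2910 in dendritic cells. Its knockout effect in CD80hi cells was 0.65 on the log2 scale (limma adjusted p = 0.633). For Aire, CD80hi signals were 1829 and 1704 with the wild type, and the knockout arrays read 1589 and 1385. Whether its probes lie in the deleted stretch is not given in the sources used here, and the signal therefore checks nothing about genotype. Of 9 receptor folding genes 6 were tested, with no limma call in any comparison and at most 1 at an unadjusted p under 0.05.

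The arrays had a 2%-trimmed mean of 100.1, and the Pearson r between the 2 arrays of a group was 0.896 to 0.966 over all probe sets. Summed markers were higher in the labelled cells than elsewhere for mTEC (562 to 3700 against 108 to 257), cTEC (7075 to 10804 against 297 to 5402), dendritic cells (5663 to 6713 against 310 to 1912) and macrophages (11051 to 19690 against 171 to 3089). The mTEC sum includes Aire. Its keratin Krt14 was at or below 17.3 on both arrays of every mTEC group. Krt5 was so in every mTEC group except knockout CD80lo. Thymocyte markers reached 6682 in cTEC and 5949 in macrophages, against at most 1209 in mTEC. Their part in the differences from mTEC was not tested. The 3′ probe set for 18S ribosomal RNA read 562 and 48.2 on knockout CD80hi arrays 1 and 2, and 1893 and 287 on knockout CD80lo arrays 1 and 2, against 148 to 376 in wild-type CD80-sorted groups. Array 1 of the knockout CD80hi group was also the one on which the Chrne sets without a suffix and with the suffix g were highest, and Chrna1 was low on both arrays of that group. The highest 18S reading was on knockout CD80lo array 1. There Chrna1 (23.8 against 18.0), Chrnd (21.2 against 10.2) and the Chrne sets (r set 206 against 140) were higher than on array 2. Chrnb1 (112 against 127) and both Chrng sets were lower there. Any link between the 18S readings and the subunit signals was not tested.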

How the data were processed

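Per the file headers and labels, the table held 12488 probe sets of an Affymetrix mouse array with 1 linear intensity value per array for total RNA of sorted cells; what software and scaling the authors applied is not given in the sources used here. No further normalisation was applied to the deposited intensities. Before log2, 4.8 was added (the 20th percentile). Neither the 66 controls nor 3103 probe sets that failed to exceed 17.3 on 2 arrays were tested. Probe sets were named through the platform annotation (10833 with 1 symbol, 396 with several, 1193 with none listed), with symbols updated through the GRCm38.p6 gene table. Each comparison was a limma contrast (3.58.1, R 4.3.3, lmFit and eBayes with trend, 8 residual and 5.97 prior degrees of freedom). The contrast of wild-type CD80hi and CD80lo mTEC was checked on simulated arrays with planted log2 changes, 50 of each size. Of changes of 1, 2, 3 and 4, 14%, 76%, 90% and 100% were recovered, and 12 of 152 calls were false. Most changes of 1 were thus missed on the simulated arrays. Those arrays held no group differences other than the planted ones, whereas the real contrast had 1186 calls. The adjustment was therefore stricter there, and the shares recovered do not carry over to the real contrast. The number of arrays limits the precision.

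A gene was summarised by its brightest probe set, and all subunit probe sets were given. Genes named are the 5 subunits, up to 6 genes called per list, 6 fixed genes (Aire, Irf8, Musk, Rapsn, Myog, Agrn), the 5 genes with the highest Pearson r to a subunit and measured neighbours within 200 kb. Members and lists were chosen with earlier results of these data known. Same-numbered arrays deviated together in the 4 groups not sorted by CD80, with a Pearson r of 0.279 to 0.526 in all 6 pairs of groups. In the CD80-sorted groups r was 0.517 between the knockout fractions and 0.0282 to 0.170 in every other pair. Both knockout groups also deviated with dendritic cells and macrophages (r of 0.335 to 0.383). The main fit did not use this pairing. Alternatives were quantile normalisation, constants of 1 and 17.3, no filter, a filter at 50, a fit of only the groups compared, eBayes without trend, a block for the replicate number, each array left out and the mean over probe sets. After the data were seen, 3 were added: a block within the groups not sorted by CD80, leaving out array 1 of both knockout groups, and the genotype effect averaged over both fractions.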

Additional observations from a re-analysis of the deposited data

Results flagged for a closer look

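The knockout effect on Chrna1 differed between the CD80 fractions, with an interaction of -3.321 on the log2 scale (limma adjusted p = 0.00766). Chrna1 read 2.1 and 0.5 in knockout against 23.7 and 24.8 in wild-type CD80hi cells, and 23.8 and 18.0 in knockout against 11.4 and 4.5 in wild-type CD80lo cells. Acta1 read 636 and 508 on those knockout CD80lo arrays and at most 52.4 on the other CD80-sorted arrays, and the part of this difference in the Chrna1 interaction was not tested. No group was large enough for a search for single outlying arrays.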

How the results depend on the processing

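Counts are subunit genes past the threshold out of 5. Wild-type CD80hi against CD80lo mTEC gave 2, and 1 with quantile normalisation, with a constant of 1, with no filter and with the mean over probe sets, and 0 to 1 without 1 array. Knockout CD80hi against CD80lo mTEC gave 2, and 1 with only the groups compared and with the mean over probe sets. The comparison with dendritic cells gave 2, and 1 with quantile normalisation and 1 without any 1 array. Knockout against wild-type CD80hi mTEC gave 1 and 0 to 1 without 1 array, and the interaction gave 1, and 0 without array 1 of both knockout groups or without wild-type CD80lo array 2. With the filter at 50 only Chrnb1 and Chrne were left of the 5, so that the counts were 0 for wild-type fractions, the knockout in CD80hi cells, the interaction and cTEC, and 1 for knockout fractions, dendritic cells and macrophages. The direction was followed for Chrna1 and for subunit fold changes with an unadjusted limma p under 0.05. None of these changed direction under any of these alternatives. The Chrnb1 difference between the knockout fractions, -0.03, was not among them, and its direction depends on which arrays are kept.

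With the replicate number as a block in all groups, Chrne (r set, -1.06, adjusted p = 0.0304) in wild-type and Chrng (dimmer set, -1.58, adjusted p = 0.0456) in knockout CD80hi against CD80lo cells passed; no other subunit call changed, nor did any under the block within the groups not sorted by CD80. Signals this near background limit Chrna1, Chrnd and Chrng.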
